A study of Mus musculus with 13 samples.

Results

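The 7 genes for ligands of the epidermal growth factor (EGF) receptor family (Areg, Ereg, Epgn, Hbegf, Tgfa, Egf and Btc) and 3 receptor genes (Egfr, Erbb2 and Erbb3) were followed through single-cell transcriptomes of mouse colon tumors and the mucosa beside them. These 10 genes were picked by symbol from the 32285 genes in the gene list of the count tables, and all 10 had counts. The 13 libraries came from 3 C57BL/6J mice of genotype ApcMin/+; p16cis/cis, which carry an Apc mutation together with a p16 epimutation and were raised on the supplemented diet (NIH-31 chow enriched in the methyl donors and cofactors folic acid, vitamin B12, betaine and choline), which began before they were conceived and lasted for life. Mouse A (24 weeks) gave tumors 5 to 8 and mucosa 2, mouse B (23 weeks) gave tumors 9 and 10 and mucosa 3, and mouse C (20 weeks) gave tumors 1 to 4 and mucosa 1. Both tissues therefore shared genotype, strain and diet, and no library from the control diet or from another genotype was analysed here. Tumors were dissociated with an enzymatic tumor dissociation kit, whereas mucosa was treated with EDTA and then TrypLE, so tissue and dissociation cannot be told apart. The tumors of 1 mouse are not independent animals, and the p-values below measure the spread between libraries.

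The ligands are made as membrane-anchored precursors that are cut by cell-surface proteases and then bind receptors on the same or a neighboring cell. Amphiregulin (Areg), epigen (Epgn), TGF-alpha (Tgfa) and EGF (Egf) bind EGFR, and heparin-binding EGF-like growth factor (Hbegf), betacellulin (Btc) and epiregulin (Ereg) bind EGFR and also ERBB4. ERBB2 has no known ligand of its own and acts as a partner in receptor pairs, and ERBB3 binds neuregulins but has little kinase activity. In the intestine, EGFR signaling supports growth of the crypt epithelium and its repair after injury, and regulatory T cells and innate lymphoid cells are known sources of amphiregulin.

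Of the 7 ligand genes, 4 lie together on mouse chromosome 5 (build GRCm38): Epgn at chr5:91027517-91035212, Ereg at chr5:91074617-91093649, Areg at chr5:91139599-91148432 and Btc at chr5:91357261-91402994. The RefSeq table used here (GRCm38.p6) gave a promoter for 7 of the 10 genes. The window of 250 bases before the start of Areg is shown because several of the results by cell population turn on Areg. It lies at chr5:91139349-91139598 on the plus strand.

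Areg promoter: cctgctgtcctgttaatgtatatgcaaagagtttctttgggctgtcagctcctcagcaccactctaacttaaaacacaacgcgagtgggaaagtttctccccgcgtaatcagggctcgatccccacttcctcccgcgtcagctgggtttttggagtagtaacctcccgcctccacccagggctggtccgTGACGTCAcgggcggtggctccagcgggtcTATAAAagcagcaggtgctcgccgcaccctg

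The capitals mark TGACGTCA, the full cAMP response element, which begins 61 bases before the gene start, and TATAAA, a core promoter motif, which begins 31 bases before it. TGACGTCA, searched on both strands of the same window, was present in 508 of 32851 promoters (1.55%) and, among the 7 members with a promoter, in Areg alone. TATAAA, also searched on both strands, was present in 4063 promoters (12.4%), among them Areg and Epgn, where it lay on the gene strand. The AP-1 motif TGANTCA, on both strands, was present in 2217 promoters (6.75%) and in none of the 7. These matches describe letters in the window and not bound sites.

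Of 137591 barcodes, 109910 cells were retained, 86687 from tumors and 23223 from mucosa. Summed over its retained cells, a tumor library held 51.8M to 79.5M unique molecular identifiers (UMIs, 1 per captured RNA molecule) and a mucosa library 71.8M to 92.7M. Over epithelial cells alone these sums were 22.4M to 40.4M and 61.8M to 84.8M. Levels are given as counts-per-million (CPM), the UMIs of a gene scaled to the UMIs of all genes in the cells that were summed. Overlap between libraries was judged on these CPM throughout, without the scaling factors that the tests add. Barcodes shared between libraries made up at most 0.561% of the smaller library. All 13 libraries held 6985 to 13134 UMIs of Y-linked genes and 2 to 10 UMIs of Xist although 7 carry a female label, and the labels give both sexes to libraries of 1 animal, so sex was not used. Mucosa 1 stood apart from the other mucosa libraries: absorptive cell markers summed to 727 CPM there against 9109 and 10373 CPM, and 33.3% of its epithelial cells were goblet-like against 12.3% and 11.4%. Values without it are given wherever they changed a call.

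Over all cells of a library, 5 of the 10 members were higher in tumors, 3 were lower and 2 did not pass the test. Of the ligands, Areg, Hbegf, Ereg, Tgfa and Btc rose and Egf fell. Of the receptors, Erbb2 and Erbb3 fell. The test was edgeR's quasi-likelihood test on UMI sums per library with Benjamini-Hochberg adjustment over 17598 genes, and 36.5% of those genes were called higher and 34.1% lower, so that calls in either direction were common. The median log2 fold change was 0.35 over the members and 0.03 over all genes tested. The libraries of both tissues did not overlap for 2 members higher in tumors and 2 lower, beside 53.1% of all genes in either direction. In these sums, a change in the number of cells of a type and a change in RNA per cell cannot be told apart: epithelial markers summed to 4062 to 9146 CPM in tumors and 11111 to 19049 CPM in mucosa, and immune markers to 2026 to 3568 CPM against 303 to 1003 CPM, with UMIs of every marker in both tissues.

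Areg stood at 68.9, 85.1 and 207 CPM (lowest, median and highest of the 10 tumors) and at 13.5, 60.2 and 45.3 CPM in mucosa 1, 2 and 3. No tumor was as low as any mucosa library, and tumors 6 and 10 were the highest. Its log2 fold change was 1.41 ± 0.47 (SE; edgeR adjusted p = 0.0154), and without mucosa 1 it was 0.99 (edgeR adjusted p = 0.0632). Hbegf ranged from 47.6 through a median of 83.2 to 125 CPM in tumors against 12.4, 43.7 and 38.2 CPM in mucosa, again without overlap (log2 fold change 1.38, edgeR adjusted p = 0.00433). Egf was at 0.261 to 0.814 CPM in tumors and at 2.88, 1.52 and 1.47 CPM in mucosa, where every library exceeded every tumor (log2 fold change -2.12, edgeR adjusted p = 1.38e-05). Ereg, at 0.57 to 5.7 CPM against 0.111, 0.612 and 0.809 CPM, was called higher (2.13, edgeR adjusted p = 0.0221), although tumors 3 and 4 lay within the range of the mucosa. Tgfa (0.45, edgeR adjusted p = 0.0195) and Btc (0.52, edgeR adjusted p = 0.0398) also overlapped between the tissues. Without mucosa 1, Ereg (1.66, edgeR adjusted p = 0.0826), Tgfa (0.31, edgeR adjusted p = 0.123) and Btc (0.41, edgeR adjusted p = 0.157) were not called either. Tgfa was also lost with the tumors of a mouse summed (0.44, edgeR adjusted p = 0.0656) and, like Btc, with a mitochondrial limit of 10% (0.35 for both, edgeR adjusted p = 0.089 and 0.178). Ereg was also lost without mucosa 2 (2.28, edgeR adjusted p = 0.0528). Btc was lost without mucosa 3 (0.48, edgeR adjusted p = 0.119), without tumor 3, 4, 5 or 9 (edgeR adjusted p from 0.051 to 0.0558) and with mouse as a replicate block (0.49, edgeR adjusted p = 0.057). Epgn, with 111 UMIs in all tumors and 36 in all mucosa libraries, was at 0.0423 to 0.347 and 0.119 to 0.188 CPM and did not pass (0.24, edgeR adjusted p = 0.65).

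Erbb3 was at 12.4 to 23.5 CPM (median 15.8) in tumors and at 40.9, 44.7 and 49 CPM in mucosa, with a gap between the tissues and a log2 fold change of -1.41 ± 0.16 (SE; edgeR adjusted p = 2.96e-06). Erbb2 was at 8.27 to 16.2 CPM (median 9.54) against 15, 21.9 and 24.6 CPM, and tumor 3 exceeded mucosa 1 (-0.95, edgeR adjusted p = 0.000399). Egfr was at 6.29 to 10.9 CPM (median 7.69) against 11.6, 9.83 and 8.93 CPM and did not pass (-0.33, edgeR adjusted p = 0.0573). It was called lower without tumor 5, 6 or 10 (-0.35, -0.35 and -0.38, edgeR adjusted p = 0.049, 0.0457 and 0.0158), with doublets kept (-0.35, edgeR adjusted p = 0.0349) and with a mitochondrial limit of 10% (-0.48, edgeR adjusted p = 0.0171).

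Because the tissues differed in cell makeup, the same contrast was run over epithelial cells alone. There 9 members passed the filter on low counts, all except Epgn (35 UMIs in tumors, 36 in mucosa). Areg, Hbegf, Tgfa and Btc were higher in tumors and Egf and Erbb3 were lower, that is 4 of 9 higher and 2 of 9 lower beside 33.3% and 30.1% of the 15519 genes tested. The median log2 fold change was 0.86 over the 9 members and 0.04 over all genes tested. Tumor and mucosa libraries did not overlap for 7 of the 9, 5 higher and 2 lower, beside 45.1% of all genes. This contrast depended on scaling: with library totals in place of TMM factors the median over all genes was 0.29, a shift of 0.25 that the members share, whereas over all cells it was 0.02. The overlap of libraries was judged on library totals, and overlap after TMM scaling was not examined.

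**Figure D1:**
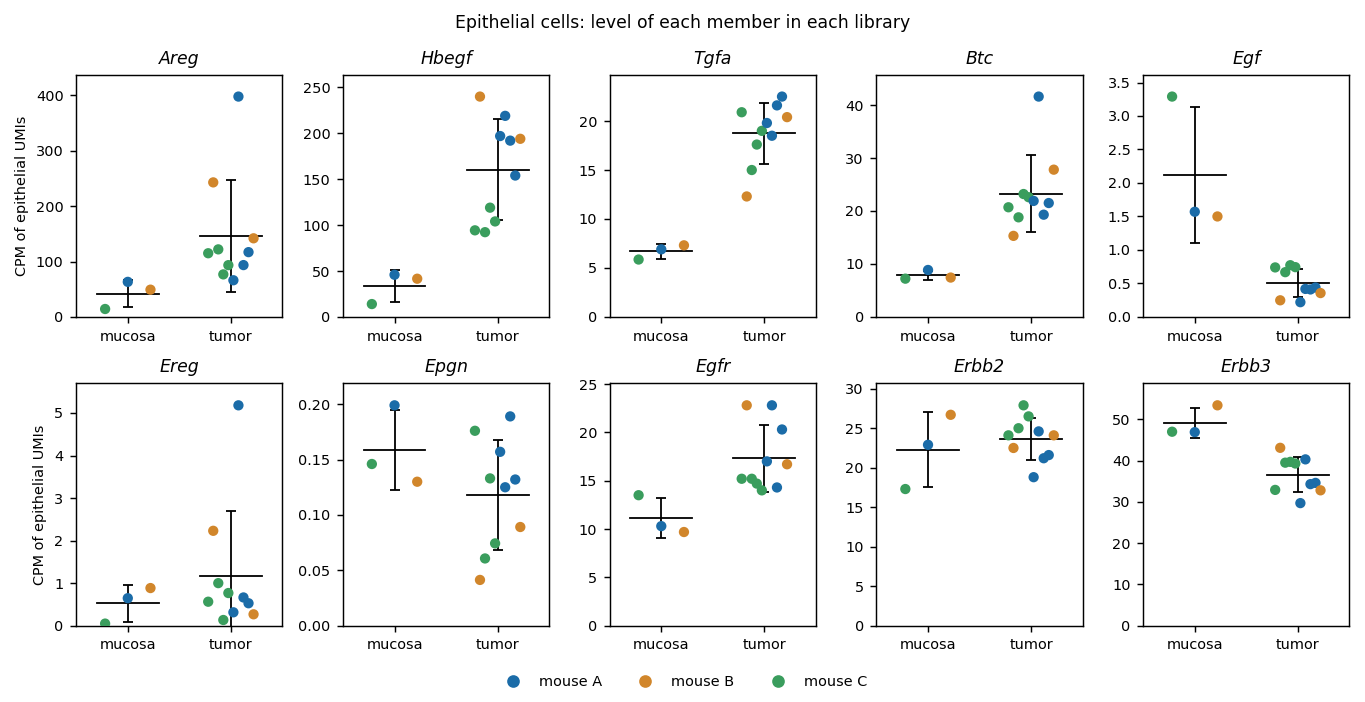
Level of each member in the epithelial cells of every library, in CPM of epithelial UMIs on linear axes from 0; each point is 1 library colored by mouse, the line is the mean and the bar is 1 SD (3 mucosa, 10 tumors). Hbegf, Tgfa and Btc lie above all mucosa values in every tumor, Erbb3 and Egf lie below them, and tumor 6 holds the highest Areg, Ereg and Btc values (398, 5.18 and 41.6 CPM).

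Tgfa had the narrowest spread among the rising ligands, at 12.3 to 22.5 CPM (median 19.4) in tumor epithelium against 5.86, 6.9 and 7.31 CPM, with every tumor above every mucosa library (log2 fold change 1.23 ± 0.14 SE, edgeR adjusted p = 9.71e-06). Btc was at 15.3 to 41.6 CPM (median 21.7) against 7.22, 8.86 and 7.43 CPM (1.31, edgeR adjusted p = 0.000232). Hbegf was at 92.3 to 240 CPM (median 173) against 14, 45.9 and 41.6 CPM (2.0, edgeR adjusted p = 0.000794). For Hbegf the 4 tumors of mouse C formed the low end, at 92.3 to 119 CPM, and the mucosa of that mouse was also the lowest. Areg was at 66.2 to 398 CPM (median 116) against 14.3, 63.3 and 49.2 CPM (1.55, edgeR adjusted p = 0.0304). The lowest tumor, 66.2 CPM, was close to mucosa 2 at 63.3 CPM. Areg was not called without mucosa 1 (1.13, edgeR adjusted p = 0.122) or without mucosa 3 (1.66, edgeR adjusted p = 0.0663), and it remained called without tumor 6 (1.26, edgeR adjusted p = 0.0283).

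Egf was at 0.22 to 0.772 CPM in tumor epithelium and at 3.29, 1.57 and 1.5 CPM in mucosa, so that no tumor reached a mucosa library (-2.30, edgeR adjusted p = 7.01e-05). Mouse C had the highest Egf in both tissues, with a mean of 0.73 CPM over its tumors. Ereg was at 0.133 to 5.18 CPM against 0.0486, 0.646 and 0.884 CPM, overlapped widely and did not pass (0.86, edgeR adjusted p = 0.449), and without tumor 6 its log2 fold change was 0.20 (edgeR adjusted p = 0.828).

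Among the receptors, Erbb3 was at 29.7 to 43.1 CPM (median 36.9) in tumor epithelium and at 47, 46.9 and 53.4 CPM in mucosa, without overlap (-0.67 ± 0.12 SE, edgeR adjusted p = 0.000247). Egfr was at 14 to 22.8 CPM (median 15.9) against 13.5, 10.3 and 9.69 CPM, also without overlap, but its log2 fold change of 0.39 did not pass (edgeR adjusted p = 0.069). It passed with library totals as the scaling (0.63, edgeR adjusted p = 0.00626) and without mucosa 1 (0.54, edgeR adjusted p = 0.034). Erbb2, at 18.8 to 27.9 CPM against 17.3, 22.9 and 26.7 CPM, did not pass, and its sign turned with the scaling, from -0.16 with TMM factors to 0.08 with library totals (edgeR adjusted p = 0.299 and 0.593).

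Genes that respond to dissociation stress were higher in tumors in both sets of sums. The 15 listed genes summed to 3080 to 6172 CPM in tumor epithelium and 1670 to 1931 CPM in mucosal epithelium, 13 of the 15 were called higher, and their median log2 fold change was 1.79. The heat shock genes Hspa1a (4.22) and Hspa1b (3.15), the stress-induced factor Atf3 (3.80) and the immediate early gene Egr1 (2.57) had the largest changes without overlap between the tissues. Over all cells, 15 of 15 were called higher, with sums of 3922 to 6325 CPM against 1773 to 1964 CPM. Within the epithelial sums, T cell markers summed to 7.99 to 26.1 CPM in tumors and 3.11 to 9.05 CPM in mucosa, all immune markers to 20.5 to 53.3 CPM and 15.5 to 18.5 CPM, and absorptive cell markers to 139 to 661 CPM and 843 to 10906 CPM, with UMIs of every marker in both tissues. The part of dissociation, of immune RNA and of cell makeup in the member changes was not tested.

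Cells were grouped into 37 clusters with the members and the neuregulin genes left out of the clustering, and a cluster was given a cell name ending in -like where its markers allowed. In tumors, 16 populations had at least 20 cells in libraries of all 3 mice, and levels are means ± SD over the 3 mice. Differences between populations are described and were not tested.

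**Figure D2:**
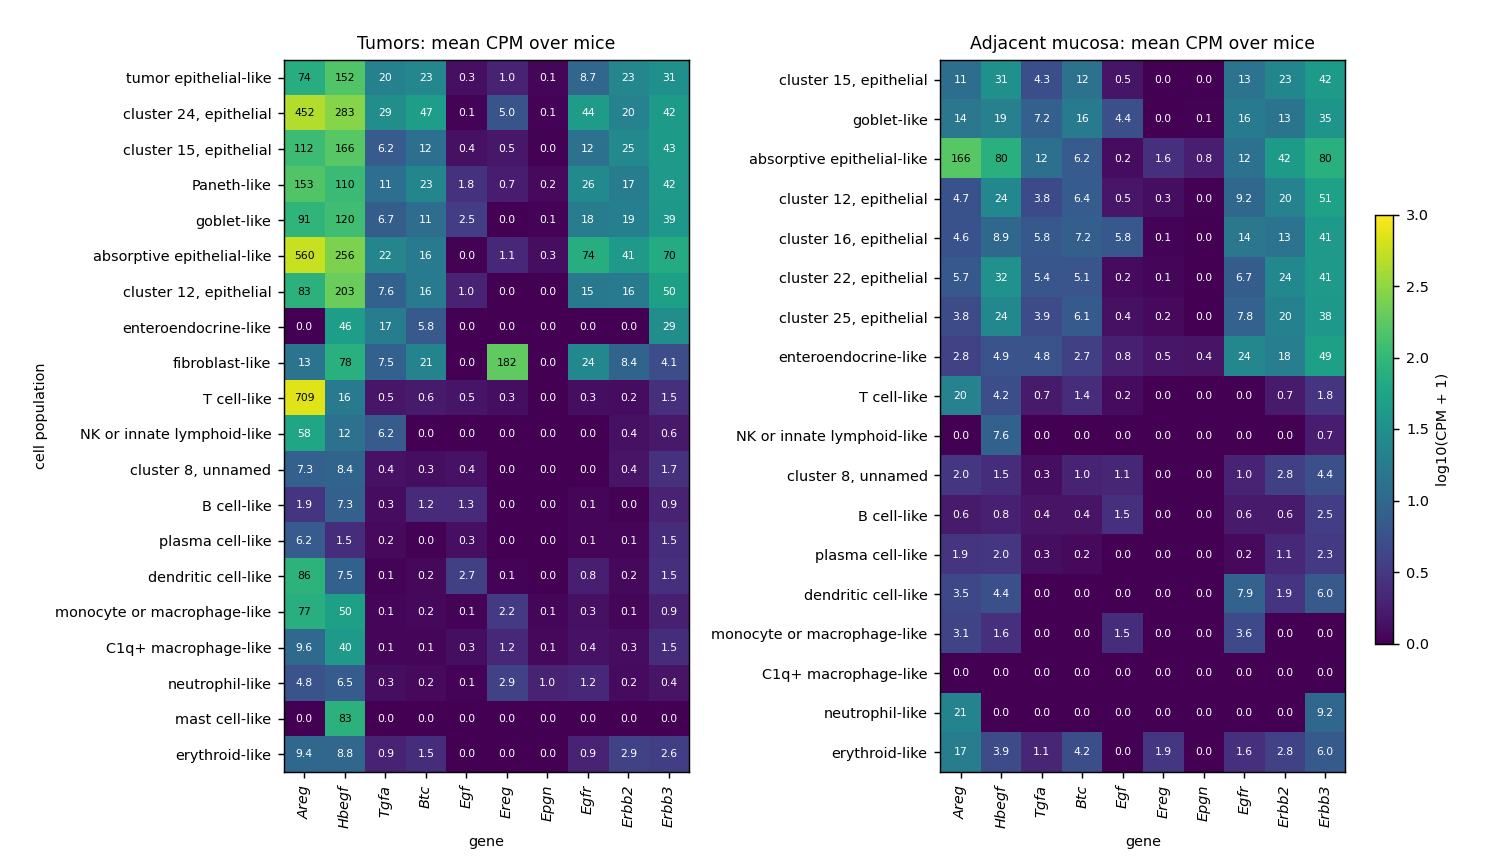
Mean CPM over mice of each member (columns) in each cell population (rows) of tumors and of mucosa; color is log10(CPM + 1) and the number in a cell is the CPM. Reading down a column, Areg in tumors was highest in T cell-like cells (709 CPM), Ereg in fibroblast-like cells (182 CPM) and Egfr in absorptive epithelial-like cells (73.6 CPM). Columns should not be compared with each other.

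Areg was highest in T cell-like cells of tumors (709 ± 95.3 CPM), followed by absorptive epithelial-like cells (560 ± 153 CPM) and cluster 24 (452 ± 78.1 CPM), an epithelial cluster led by Sprr2b, Krt17 and Cxcl5 and found in tumors only. Neighbors among these 3 did not differ beyond their SDs, and the next population, Paneth-like cells at 153 ± 10.2 CPM, lay clearly below them. Tumor epithelial-like cells, which carried the Wnt target genes Axin2, Nkd1 and Notum at their highest level among the populations, held 73.5 ± 24.9 CPM. B cell-like cells were at the other end, with 1.93 ± 2.16 CPM.

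Hbegf was highest in cluster 24 (283 ± 78.5 CPM) and absorptive epithelial-like cells (256 ± 59.5 CPM), followed by cluster 15 (166 ± 58.1 CPM), an epithelial cluster led by Defb45, Robo2 and Thbs4, and tumor epithelial-like cells (152 ± 52.4 CPM). None of these neighbors differed beyond their SDs. Among immune cells it was highest in monocyte or macrophage-like cells (50.3 ± 4.25 CPM), whose level exceeded that of C1q+ macrophage-like cells (40.2 ± 5.2 CPM) beyond both SDs. Tgfa was highest in epithelium: cluster 24 (29.3 ± 4.92 CPM), absorptive epithelial-like cells (22.2 ± 3.45 CPM) and tumor epithelial-like cells (19.6 ± 2.6 CPM) came first. Fibroblast-like (7.55 ± 2.26 CPM) and NK or innate lymphoid-like cells (6.19 ± 2.37 CPM) were within an SD of goblet-like cells (6.74 ± 2.29 CPM) and cluster 15 (6.17 ± 1.23 CPM), and T cell-like and B cell-like cells and the myeloid populations were each at 0.508 CPM or less. Btc was highest in cluster 24 (47.4 ± 8.64 CPM), above tumor epithelial-like cells (23.2 ± 2.43 CPM) beyond their SDs.

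Ereg had a different pattern. Fibroblast-like cells of tumors held 182 ± 110 CPM and the next population, cluster 24, 5.02 ± 2.33 CPM. In the 7 tumors with at least 20 fibroblast-like cells (411 cells), Ereg was at 279 CPM in tumor 1, 164 in tumor 2, 282 in tumor 5, 46.7 in tumor 6, 469 in tumor 7, 99.7 in tumor 9 and 15.4 in tumor 10. These 7 values spread widely, and tumor 10, the lowest, still exceeded the mean of every other population. A UMI of Ereg was found in 21.1% of fibroblast-like cells (median 7599 UMIs per cell) and in 0.0221% of B cell-like cells (median 2232); thinned to 1500 UMIs per cell the shares were 11.7% and 0%. Mucosa held 14 fibroblast-like cells, so no comparison of the tissues was made in them.

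Egf and Epgn were low everywhere. In tumors, Egf was highest in dendritic cell-like (2.7 ± 0.311 CPM) and goblet-like cells (2.53 ± 1.9 CPM), and Epgn in neutrophil-like cells (0.988 ± 0.753 CPM). In mucosa, Egf was highest in cluster 16 (5.76 ± 1.21 CPM), an epithelial cluster led by Retnlb, A4gnt and Spdef, and in goblet-like cells (4.42 ± 1.57 CPM). Cluster 16 made up 8.77% of mucosa cells and 0.0567% of tumor cells, and goblet-like cells 7.67% to 17.2% and 0.0943% to 1.93% over libraries.

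All 3 receptors were highest in absorptive epithelial-like cells of tumors. Egfr was at 73.6 ± 13 CPM there, beyond the SDs of cluster 24 (44 ± 7.64 CPM), which in turn exceeded Paneth-like cells (25.6 ± 9.26 CPM) beyond theirs, and tumor epithelial-like cells (8.65 ± 0.993 CPM) were the lowest epithelial population of the 16. Fibroblast-like cells held 24 ± 16.5 CPM of Egfr. Erbb2 was at 40.6 ± 8.77 CPM in absorptive epithelial-like cells and between 17 and 24.9 CPM in the other epithelial populations. Erbb3 was at 69.5 ± 9.59 CPM in absorptive epithelial-like cells, between 38.6 and 42.6 CPM in cluster 15, cluster 24, Paneth-like and goblet-like cells, and at 30.8 ± 2.3 CPM in tumor epithelial-like cells. Outside epithelium and fibroblast-like cells no population of the 16 exceeded 1.68 CPM of any receptor.

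**Figure D3:**
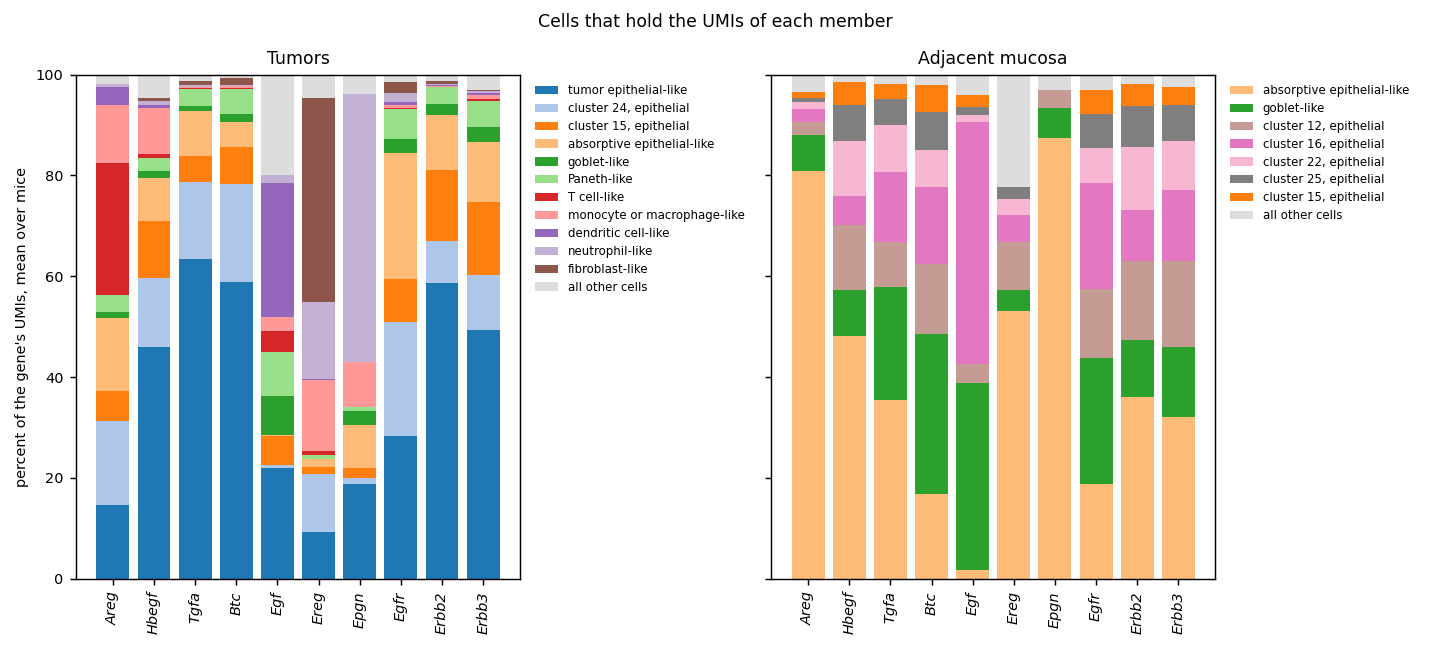
Percent of each member's UMIs found in each cell population, as the mean over 3 mice, for tumors and for mucosa. Among single populations of tumors, T cell-like cells held the largest share of Areg (26.2%), fibroblast-like cells that of Ereg (40.5%), neutrophil-like cells that of Epgn (53.2%) and tumor epithelial-like cells those of Hbegf, Tgfa and Btc, whereas in mucosa absorptive epithelial-like cells held 80.9% of Areg. All epithelial populations together held 40256 of the 68658 Areg UMIs of tumors.

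Counted as UMIs rather than as levels, the Areg RNA of tumors was spread over many cell types. Epithelial cells of all clusters together held 40256 of its 68658 UMIs in tumors. The shares that follow are of single populations, into which the epithelium was split. T cell-like cells held 26.2 ± 2.59% of it (range over tumors 20.5% to 34.2%), cluster 24 held 16.7 ± 3.22%, tumor epithelial-like cells 14.6 ± 1.23%, absorptive epithelial-like cells 14.5 ± 3.04% and monocyte or macrophage-like cells 11.4%. In mucosa, absorptive epithelial-like cells held 80.9 ± 14.4%. Tumor epithelial-like cells held 45.9 ± 4.28% of Hbegf, 63.4 ± 7.34% of Tgfa and 58.9 ± 2.43% of Btc. They made up 13.6% of tumor cells, which is not their share of all UMIs. Their median was 10409 UMIs per cell, against 2595 in neutrophil-like cells. They also held 58.6 ± 3.51% of Erbb2 and 49.3 ± 2.5% of Erbb3 but 28.3 ± 2.47% of Egfr, next to 25.1 ± 8.77% in absorptive epithelial-like cells and 22.7 ± 2.35% in cluster 24. In mucosa, cluster 16 and goblet-like cells held 48 ± 17.1% and 37 ± 21.6% of Egf.

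The contrast of tumor and mucosa was then run within the populations present in both tissues. In T cell-like cells, 2 members could be tested, Areg and Hbegf, and both rose, beside 19.2% of 10020 genes called in either direction. Areg was at 26.9, 10.8 and 23.9 CPM in mucosa 1, 2 and 3. In tumors 1 to 10 it was at 460, 450, 1058, 487, 924, 1446, 480, 368, 876 and 544 CPM. The lowest tumor was thus more than 10 times the highest mucosa library, and the log2 fold change was 5.04 ± 0.49 (SE; edgeR adjusted p = 5.79e-07), with a median of 0.01 over all genes tested. Hbegf, at 8.95 to 27.1 CPM (median 14.5) against 3.54, 7.18 and 1.99 CPM, also did not overlap (2.18, edgeR adjusted p = 0.00586), although the mucosa held 8 UMIs of it and it was not called without mucosa 1 (2.25, edgeR adjusted p = 0.0734).

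An Areg UMI was found in 22% of T cell-like cells of tumors (median 3500 UMIs per cell) and in 2.61% of those of mucosa (median 2503). After thinning every cell to 1500 UMIs, which left out 488 and 131 cells, the shares were 17.1% and 2.15%. In B cell-like cells, which should lack the gene, the thinned shares were 0.196% in tumors and 0% in mucosa (0 of 864 cells). The T cell-like population joined several clusters. It did not include cluster 8, led by Cd160, Cd7 and Gzma, which was left unnamed because its median of 1875 UMIs per cell was far below that of its libraries (8314) and none of the listed T cell markers was among its 10 leading genes. Its T cell markers summed to 5240 to 7197 CPM in tumors and 5907 to 7614 CPM in mucosa. Cluster 8 held 478 cells of tumors and 4029 of mucosa, and its Areg was at 7.32 ± 2.18 CPM in tumors and 2.01 ± 0.823 CPM in mucosa, too low to test. With cluster 8 added to the T cell-like population, a choice made after seeing the data that gave 6977 cells of tumors and 4718 of mucosa, Areg was at 345 to 1312 CPM against 3.97 to 7.93 CPM (6.90 ± 0.52 SE, edgeR adjusted p = 9.41e-09). Hbegf stood at 3.27 (edgeR adjusted p = 3.49e-06), and Erbb3 was lower (-1.22, edgeR adjusted p = 0.00908) but not without mucosa 1 (-1.07, edgeR adjusted p = 0.0703), so that 3 of 3 members tested were called beside 41.5% of 10493 genes. Epithelial markers in that sum were also lower in tumors, at 58 to 225 CPM against 243 to 2820 CPM in mucosa. The part of epithelial RNA in the Erbb3 call was not tested. Cluster 8 made up most of the mucosa cells and few of the tumor cells in that sum. Of the clusters that were joined, the largest, cluster 5, led by Tnfrsf4, Icos and Tff1, was also fitted alone: Areg was at 313 to 1024 CPM (median 453) against 14 to 33.1 CPM, without overlap (4.54 ± 0.43 SE, edgeR adjusted p = 3.79e-07; 1 of 2 members called, beside 15% of 9656 genes). Hbegf in cluster 5 was the other, with 1.40 (edgeR adjusted p = 0.0502), and it was called without tumor 7, 8 or 10 (1.44, 1.47 and 1.43, edgeR adjusted p = 0.0445, 0.0283 and 0.0484). Within cluster 5 of tumors, the 470 cells with a UMI of Foxp3, the defining factor of regulatory T cells, held 2348 ± 499 CPM of Areg (SD, 3 mice), and the 5476 cells without one held 405 ± 44.3 CPM. Cluster 33, led by the gamma-delta T cell receptor genes Trdv4 and Trdc and by the cytokine gene Il17a, had at least 20 cells in 8 tumors and held 1132 to 4699 CPM of Areg, with tumors 6 and 9 the highest. Mucosa held 30 cells of cluster 33 and 329 came from tumors.

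Other signals moved with this contrast. In T cell-like cells the dissociation stress genes summed to 5249 to 7215 CPM in tumors and 2544 to 3256 CPM in mucosa. In B cell-like cells they summed to 5718 to 11335 CPM and 1993 to 2437 CPM, and Areg, which was too low to test there, was at 1.93 ± 2.16 CPM in tumors and 0.628 ± 1.09 CPM in mucosa (SD, 3 mice). Epithelial markers in T cell-like cells, with UMIs of all 8 in both tissues, summed to 58 to 225 CPM in tumors and 176 to 2347 CPM in mucosa, that is lower in tumors. The part of stress in the Areg contrast was not tested.

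**Figure D4:**
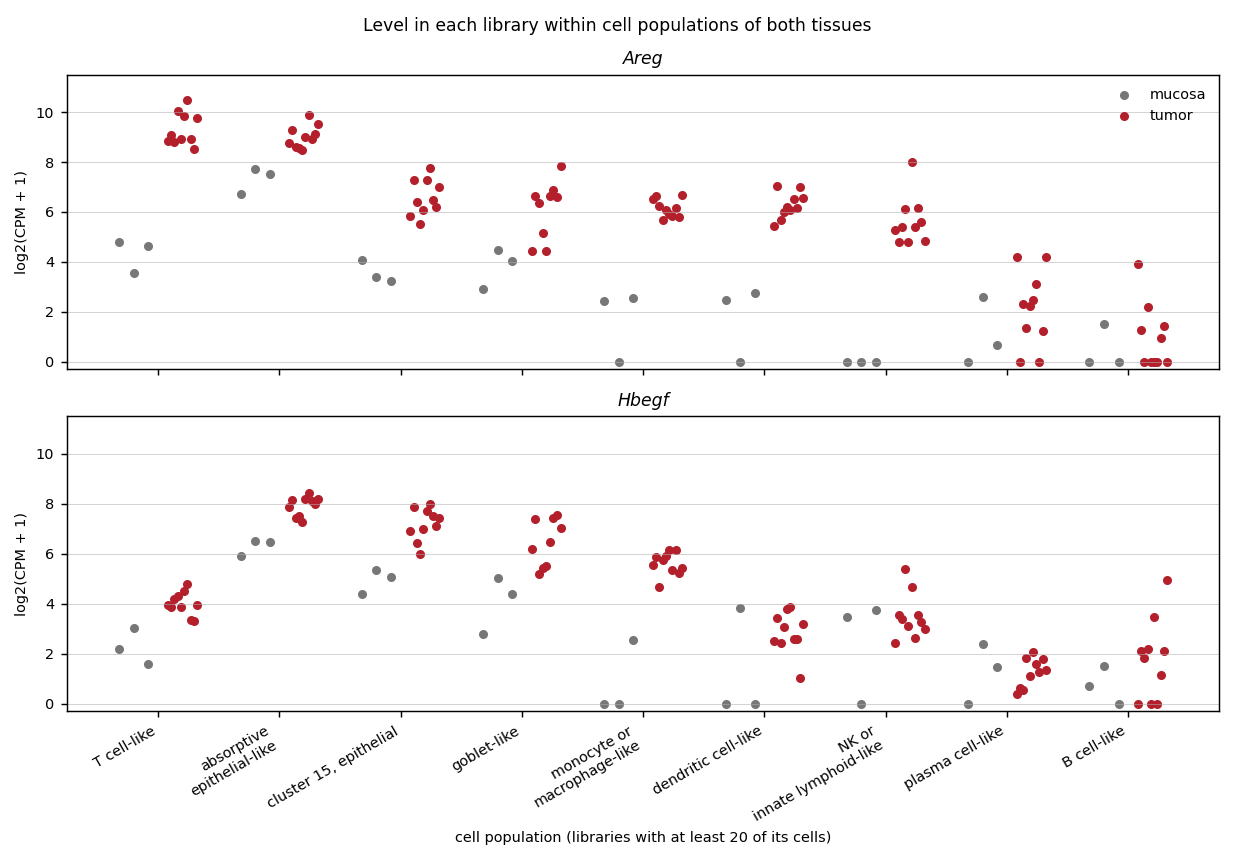
Areg and Hbegf in each cell population that was compared, as log2(CPM + 1) per library; each point is 1 library with at least 20 cells of the population, mucosa in gray and tumors in red. In T cell-like cells every tumor (368 to 1446 CPM of Areg) lies above every mucosa library (10.8 to 26.9 CPM), whereas in plasma cell-like cells the tissues overlap.

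In absorptive epithelial-like cells, 7 members were tested and 5 rose, beside 39.6% of 9196 genes called in either direction. The median log2 fold change was 1.28 over the 7 and -0.00 over all genes. Egfr changed most, from 20.4, 8.54 and 7.89 CPM in mucosa 1, 2 and 3 to 48 to 104 CPM in tumors (median 67.4), with every tumor above every mucosa library (2.61 ± 0.29 SE, edgeR adjusted p = 5e-06). Areg was at 355 to 938 CPM (median 502) against 105, 211 and 182 CPM (1.70, edgeR adjusted p = 0.000601), and Hbegf at 155 to 345 CPM (median 266) against 59.9, 91.5 and 87.7 CPM (1.65, edgeR adjusted p = 0.000132). Btc rose by 1.28 (edgeR adjusted p = 0.000314) and Tgfa by 0.86 (edgeR adjusted p = 0.0028). Erbb2 (-0.03, edgeR adjusted p = 0.912) and Erbb3 (-0.14, edgeR adjusted p = 0.531) did not pass.

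Different clusters made up the absorptive population in the 2 tissues. Cluster 18, led by Clca4b, Ly6m and Atp12a, held 1180 of the 1221 cells in tumors and 723 of the 4074 in mucosa, where clusters 21 (Car1, Hsd3b3) and 23 (Tmigd1, Cyp2c55) held most of the rest. In cluster 18 alone, 1 of 7 members was called, Erbb3, which was lower (-0.86, edgeR adjusted p = 0.0351), beside 25% of 8636 genes, with 5 of the 7 at an unadjusted p under 0.05 and a median of 0.51 (0.02 over all genes). Erbb3 was not called without mucosa 1 (-0.10, edgeR adjusted p = 0.769) or without tumor 1, 2, 5, 9 or 10 (edgeR adjusted p from 0.0522 to 0.0551). Erbb2 in cluster 18 did not pass (-0.44, edgeR adjusted p = 0.254) but was called lower without mucosa 2 (-0.78, edgeR adjusted p = 0.0441). Areg in cluster 18 was at 355 to 1124 CPM in tumors (median 510) and 261 to 418 CPM in mucosa, with overlap (0.51, edgeR adjusted p = 0.287). Hbegf was at 155 to 442 CPM against 95.3 to 147 CPM, without overlap, and did not pass (0.77, edgeR adjusted p = 0.0833). Tgfa, at 15.2 to 32.2 CPM against 11.4 to 13.4 CPM (0.49, edgeR adjusted p = 0.12), and Btc, at 11.2 to 20.2 CPM against 1.52 to 11.1 CPM (0.69, edgeR adjusted p = 0.113), likewise did not overlap and did not pass. Egfr was at 49.2 to 149 CPM against 13.7 to 55.5 CPM (1.21, edgeR adjusted p = 0.0661) and passed without mucosa 1 (2.23, edgeR adjusted p = 0.0021). With library totals as the scaling, which shifted all genes of cluster 18 by 0.31, Hbegf, Tgfa, Btc and Egfr were called higher and Erbb3 was not. The overlap given above was judged on library totals too, and overlap after TMM scaling was not examined. The stress genes summed to 2736 to 4178 CPM in absorptive epithelial-like cells of tumors and 2041 to 2085 CPM in those of mucosa, and in cluster 18 the ranges overlapped (2736 to 5416 CPM and 2271 to 4232 CPM).

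Cluster 15 had at least 20 cells in all 13 libraries, and 2 of its 7 tested members were called, both higher, beside 15.6% of 11114 genes. Areg was at 44.6 to 213 CPM in tumors (median 85.9) and at 15.8, 9.46 and 8.42 CPM in mucosa, without overlap (3.44 ± 0.51 SE, edgeR adjusted p = 0.000717). Hbegf was at 63.6 to 255 CPM (median 155) against 19.8, 40.5 and 33.2 CPM, also without overlap (2.26 ± 0.38 SE, edgeR adjusted p = 0.00163). Tgfa (0.62), Btc (0.33), Egfr (0.22), Erbb2 (0.30) and Erbb3 (0.16) overlapped and did not pass, and Erbb3 was called higher without mucosa 1 (0.37, edgeR adjusted p = 0.0434). The stress genes summed to 1728 to 5104 CPM in tumors and 1271 to 1913 CPM in mucosa, with overlap. Taken singly, 11 of the 15 were called higher, and 8 had no overlap between the tissues. Their median log2 fold change was 1.81, beside 0.02 over all genes tested in cluster 15. The part of stress in the Areg and Hbegf contrasts of cluster 15 was not tested.

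In goblet-like cells, 2 of 7 members were called, Areg and Hbegf, beside 6.97% of 8388 genes. Areg was at 20.5 to 229 CPM in 9 tumors (median 95.4) and 6.6, 21.2 and 15.4 CPM in mucosa, and tumors 1 and 4 lay within the mucosa range (2.62, edgeR adjusted p = 0.0137). Hbegf was at 35.2 to 187 CPM (median 87.1) against 6.02, 31.9 and 20.1 CPM, without overlap (2.48, edgeR adjusted p = 0.0139). Neither was called without mucosa 3 (2.68 and 2.51, edgeR adjusted p = 0.0668 and 0.0683). Erbb2 did not pass (0.72, edgeR adjusted p = 0.0731) and was called higher without tumor 8 or 10 (0.78 and 0.80, edgeR adjusted p = 0.0466 and 0.0411). The stress genes summed to 2417 to 6411 CPM in tumors and 1736 to 1981 CPM in mucosa.

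Mucosa held few myeloid and innate lymphoid cells, and the contrasts there rest on a handful of mucosa UMIs. In monocyte or macrophage-like cells (17294 cells from tumors, 126 from mucosa) Areg was at 50.6 to 101 CPM in every tumor, 7284 UMIs in all, against 2 mucosa UMIs, so that its CPM was 18.8 times as high (5.21 to 156 as the 95% interval from counting). Hbegf was at 24.6 to 71.3 CPM against 1 UMI, 26 times as high (4.67 to 1028). Different clusters made up this population in the tissues: cluster 3 held 10126 tumor and 21 mucosa cells, and cluster 19 held 1814 and 50. An Areg UMI was found in 8.19% of the tumor cells of cluster 3. In cluster 19 it was found in 3.25% of tumor cells and 4% of mucosa cells. In dendritic cell-like cells Areg was at 42.5 to 131 CPM against 2 mucosa UMIs, 17.4 times as high (4.81 to 144). Hbegf there had 211 tumor UMIs against 1 mucosa UMI, 3.15 times as high, with an interval (0.559 to 125) that includes no difference. In NK or innate lymphoid-like cells Areg was at 27 to 254 CPM in tumors, with tumor 5 the highest, and at 0 UMIs in 184 mucosa cells, at least 11.9-fold higher in tumors against a floor of 3 UMIs over the mucosa group. An Hbegf UMI was found in 2.37% of these cells in tumors and 3.26% in mucosa. Neutrophil-like cells, 26601 from tumors and 84 from mucosa, held 345 Areg UMIs in tumors and 2 in mucosa. The share of these cells with an Areg UMI was 0.669% in tumors (median 2595 UMIs per cell) and 2.38% in mucosa (median 1303). The mucosa share rests on those 2 UMIs, so no rise or fall of Areg was read from neutrophil-like cells. In these 4 populations the members that passed the filter on low counts had at most 3 mucosa UMIs each, so no test of them is given. The intervals cover counting error only. The stress genes summed to 4870 to 7064 CPM against 3919 to 4379 CPM in monocyte or macrophage-like cells, to 3432 to 5933 CPM against 1807 to 2592 CPM in dendritic cell-like cells and to 5295 to 8976 CPM against 2456 to 3058 CPM in NK or innate lymphoid-like cells. In neutrophil-like cells they summed to 7012 to 9385 CPM in tumors and 8591 to 10759 CPM in mucosa.

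In plasma cell-like cells 0 of 3 members were called by edgeR, beside 32.0% of 9380 genes, with 7 or 8 mucosa UMIs of each. In those cells 0 members had an unadjusted p under 0.05, and DESeq2 was not run there.

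**Figure D5:**
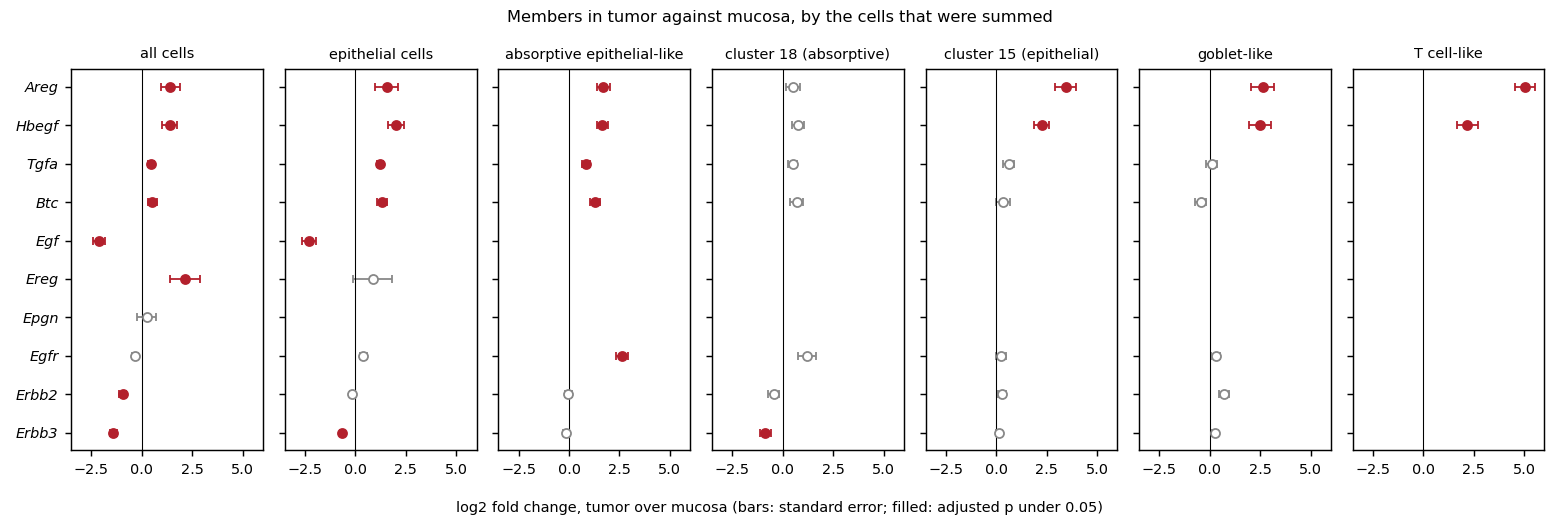
Log2 fold change of each tested member, tumor over mucosa, with its SE, in 7 comparisons (edgeR quasi-likelihood test on UMI sums per library); filled points have an adjusted p under 0.05. Areg and Hbegf lie to the right of 0 in every panel that tests them, and Erbb3 lies to the left in the sums over all cells (-1.41) and over epithelial cells (-0.67).

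Within tumors, tumor epithelial-like cells could be set against the other epithelial cells of the same tube, which shared the dissociation. These values are a description, since the clusters were built from the same cells. Areg stood at 73.5 CPM in tumor epithelial-like cells and 281 CPM in the other epithelial cells, a log2 ratio of -2.19 ± 0.23 (SD, 3 mice), and was lower in 10 of 10 tumors. Egfr stood at 8.65 and 33.1 CPM (-1.87 ± 0.12) and Erbb3 at 30.8 and 46.4 CPM (-0.59 ± 0.15), both lower in 10 of 10. Hbegf was at 152 and 198 CPM (-0.37 ± 0.05), also lower in 10 of 10. Tgfa was slightly higher in tumor epithelial-like cells (0.26 ± 0.19, 8 of 10 tumors), and Btc (-0.03 ± 0.15) and Erbb2 (-0.08 ± 0.13) were within their SDs of 0. When clusters found almost only in tumors were left out of the comparison cells, a choice made after seeing the data, Tgfa and Btc stood at 0.78 and 0.84, above 0 in 10 of 10 tumors, and Ereg went from -0.51 ± 0.42 to 0.46 ± 0.79, within its SD of 0 and above 0 in 6 of 10.

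The rest of the pathway was counted in lists of its genes, beside the 33.3% of all genes called higher and 30.1% called lower in the epithelial sums. Of 4 genes for ligand shedding, 4 were higher in tumor epithelium: Rhbdf2 (0.89) and Rhbdf1 (0.65), the iRhom partners of the protease ADAM17, Adam10 (0.79), a protease that releases EGF and betacellulin, and Adam17 (0.45), which releases most of the other ligands. Of 17 feedback inhibitors, 10 were higher and 1 lower, with a median of 0.40. Dusp4, a MAP kinase phosphatase, changed most (3.52), followed by the related Dusp5 (1.87) and by Errfi1, an inhibitor of the EGFR kinase, which was at 64.8 to 129 CPM in tumors and 18.4 to 26.7 CPM in mucosa (1.74). Lrig3 was the 1 that fell, at 6.31 to 13.1 CPM against 34.6 to 45.1 CPM (-2.22). Of 7 genes induced by the pathway, 3 were higher, Fosl1 (4.92), Ier3 (3.23) and Phlda1 (2.41), and of 21 adaptors and kinases of the RAS-MAPK and PI3K branches 7 were higher and 7 lower, with a median of 0.10, shares close to those of all genes. All values are log2 fold changes called by edgeR in the epithelial sums. In those sums 13 of the 15 dissociation stress genes were called higher too, with a median of 1.79. The part of dissociation in the changes of the pathway lists was not tested.

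The neuregulins, the ligands of ERBB3 and ERBB4, were counted in the same way. Nrg1 was at 12.4 to 36.8 CPM over all tumor cells and 0.111 to 0.153 CPM in mucosa (log2 fold change 7.49 ± 0.53 SE, edgeR adjusted p = 6.81e-08), and monocyte or macrophage-like cells held 77.5 ± 1.82% of its UMIs in tumors. Within those cells Nrg1 was at 62 to 157 CPM against 8.9, 24.3 and 86.5 CPM in mucosa, so that the tissues overlapped, with 15 UMIs in mucosa. Nrg2 was also higher over all cells (1.24, edgeR adjusted p = 0.000102) and Nrg4 did not pass (-0.18, edgeR adjusted p = 0.736). Most Nrg4 UMIs lay in epithelial cells, 292 of 357 in tumors and 142 of 152 in mucosa. In the epithelial sums none of the 3 tested was called by edgeR, with 1 at an unadjusted p under 0.05 and 2 called by DESeq2. Erbb4, the receptor not among the members, had 37 UMIs in tumors and 0 in mucosa, and Nrg3 had 0 and 4.

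Across the 16 tumor populations, the genes whose levels ran most like each member are given as a description, from Pearson's r of log2(CPM + 1) over 9817 genes. The populations come from the same libraries and differ in depth. For Areg these were Ccl20 (0.811), Espn (0.811) and Nipal1 (0.808), the lowest first value of any member. For Hbegf they were Hgs (0.963), Pwwp2b (0.958) and Ctnnd1 (0.956), for Tgfa Plekha7 (0.961), for Btc Emp2 (0.986) and for Egf Hepacam2 (0.875). Ereg ran most like C1s1 (0.962), Thbs3 (0.959) and Rgs5 (0.953), and Epgn like Olfm4 (0.936). The first gene was Pcdh1 (0.980) for Egfr, Lurap1l (0.994) for Erbb2 and Myo5c (0.988) for Erbb3.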

How the data were processed

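The authors deposited, per library, UMI counts per gene and cell barcode from 10x Genomics 3' libraries. The submitters' processing notes name Cell Ranger 6.0.0 and mm10, and the study's methods name another Cell Ranger version. Barcodes under 500 UMIs or 200 genes, or over 25% mitochondrial UMIs, were dropped, and simulated-doublet scoring removed, in each library, 0.8% of the barcodes that passed for every 1000 that passed. Cells were clustered (2000 variable genes without 15 held-out genes, 30 principal components, 20 neighbors, Leiden resolution 1 with leidenalg 0.10.2) and named from fixed marker lists. UMIs were summed per library over all cells, over epithelial cells, and over each population with at least 20 cells in a library. Tumor and mucosa were compared with edgeR 4.0.16 (quasi-likelihood test, TMM factors, filterByExpr, Benjamini-Hochberg adjustment, threshold 0.05) in R 4.3.3, and with DESeq2 1.42.0 as an alternative. Alternatives were other scalings, no filter on low counts, mouse as a block, tumors summed per mouse, each library or mouse left out, other cell filters and doublets kept. For the tests within populations, tumors were not summed per mouse. DESeq2's Wald test, other cell filters and doublets kept were not run for those tests either. The SE given with an edgeR log2 fold change is its absolute value divided by the square root of the test's F statistic. The edgeR step was tested on simulated data. Tumors and mucosa of 1 animal were paired by the animal code in the labels, since the replicate numbers do not pair them. The deviations of tumors correlated with those of their own mucosa at 0.119 (mouse A), 0.0311 (B) and 0.0775 (C) over all cells, and at 0.151, 0.0988 and 0.24 in epithelium. The own mucosa gave the highest correlation in each case except mouse B in epithelium. All 10 members were named, pathway genes were named when called in the epithelial sums without overlap, at most 4 per list and direction, largest change first, and the 3 most alike genes by r. Members and gene lists were chosen with earlier results of these data known.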

Additional observations from a re-analysis of the deposited data

Results flagged for a closer look

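Tumor 6, from mouse A, lay far above the other 9 tumors for several ligands (a gap to the nearest tumor above Dixon's 95% critical share of the whole range, which chance gives in about 1 of 20 groups; 6 of 28 groups tested). In epithelial cells it held 398 CPM of Areg (next tumor 243), 5.18 CPM of Ereg (next 2.23) and 41.6 CPM of Btc (next 27.8). The same tumor stood apart within tumor epithelial-like cells, with 261 CPM of Areg (next 99.8) and 45 CPM of Btc (next 27.2), and within cluster 24, with 1146 CPM of Areg (next 629). All 6 are values of tumor 6 in groups that share cells, so they are not independent of each other.

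The tumor contrast differed in size between cell populations, by a two-sided exact permutation test of the difference within libraries, with 5 differences tested and adjusted together. Tissue labels were exchanged freely across mice, so the test ignores which libraries came from the same animal. For Areg it was larger in T cell-like than in absorptive epithelial-like cells by 3.31 on the log2 scale (exact permutation p = 0.0035, the smallest that 286 assignments allow, adjusted p = 0.0175), and larger in cluster 15 than in absorptive epithelial-like cells by 1.33 (exact permutation p = 0.014, adjusted p = 0.0291). For Hbegf cluster 15 exceeded absorptive epithelial-like cells by 0.64 (exact permutation p = 0.0175, adjusted p = 0.0291). In goblet-like cells the differences of 0.67 for Areg and 0.80 for Hbegf did not pass (exact permutation, adjusted p = 0.268 and 0.136). Different clusters made up the absorptive population in the 2 tissues, with cluster 18 holding 1180 of 1221 cells in tumors and 723 of 4074 in mucosa. Against cluster 18 alone, a choice made after seeing the data, the differences were 4.28 (T cell-like), 2.30 (cluster 15) and 1.63 (goblet-like) for Areg (exact permutation, adjusted p = 0.00874, 0.00874 and 0.0364), and 1.24 (cluster 15) and 1.39 (goblet-like) for Hbegf (exact permutation, adjusted p = 0.0117 and 0.0364).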

How the results depend on the processing

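Of 1051 refits of single members, 1003 kept the side of the threshold, 28 lost the call and 20 gained it. The sign changed in 11, none of them called in either fit. With mouse as a replicate block, all-cell Btc was not called (0.49, edgeR adjusted p = 0.057) and no other member's call changed. Library totals in place of TMM factors, an alternative chosen after seeing the data, gave 4 members called in cluster 18, 5 induced targets in epithelium and 5016 genes in plasma cell-like cells (3003 with TMM). Without a filter on low counts, all-cell Btc was not called (0.50, edgeR adjusted p = 0.0536), and 2 members were called in cluster 5, 2 in cluster 18, 4 neuregulin-list genes over all cells and 1442 genes in goblet-like cells (585 with it). DESeq2's Wald test called 2 neuregulin-list genes in epithelium. A mitochondrial limit of 10% ended the all-cell calls of Tgfa (0.35, edgeR adjusted p = 0.089) and Btc (0.35, edgeR adjusted p = 0.178) and gave one to Egfr (-0.48, edgeR adjusted p = 0.0171), and it moved the T cell-like share of Areg to 29.8%, the tumor epithelial-like share of Btc to 55.5% and Erbb3 in absorptive epithelial-like cells to 59.0 CPM. Without clusters found almost only in tumors, also chosen after seeing the data, the within-tumor log2 ratios were -1.92 for Areg, 0.46 for Ereg (reversed in sign, SD 0.79), -0.25 for Hbegf, 0.78 for Tgfa, 0.84 for Btc and -0.28 for Erbb2. Leaving out 1 library at a time gave 4 to 9 members called over all cells (4 without mucosa 1), 1 to 2 in T cell-like cells, 1 to 2 in cluster 5, 0 to 2 in cluster 18 and 0 to 3 in goblet-like cells (0 without mucosa 3). Genes called ranged from 1153 to 2222 in T cell-like cells (lowest without mucosa 1), 815 to 1740 in cluster 5 (mucosa 1; 958 without mucosa 3), 451 to 1887 in cluster 15 (mucosa 3; 523 without mucosa 2), and 190 to 630 in goblet-like cells (mucosa 3; 375, 287 and 290 without mucosa 1, mucosa 2 and tumor 7), and feedback inhibitors called in epithelium from 7 to 12 (mucosa 2). Except for fewer samples, the cause was not tested. Epgn had 147 UMIs in all, and the mucosa held 126 monocyte or macrophage-like and 84 dendritic cell-like cells.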
